A study of Mus musculus with 42 samples.

Results

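The late response to bacterial lipopolysaccharide (LPS) was measured in bone-marrow-derived macrophages (BMDM) labelled KO for Irf5. The comparison was that of the 3 libraries of KO LPS 24 h with the 3 libraries of KO Control 24 h, chosen by their column names in the deposited count table, which are 6 of the 42 libraries in all. Mice labelled KO carried Irf5 alleles flanked by loxP sites (C57BL/6-Irf5tm1Ppr/J) and a Cre recombinase expressed from the Lyz2 locus, which is active in myeloid cells (B6.129P2-Lyz2tm1(cre)Ifo/J), and mice labelled WT were their littermates. Male mice of 7 to 10 weeks gave the marrow, and the cells were differentiated in medium conditioned by L929 fibroblasts. LPS was given at 10 ng/ml for 24 h, and Control cells were kept for 24 h without it. The WT LPS 24 h and WT Control 24 h groups, and the KO LPS 2 h and KO Control 2 h groups, each with 3 libraries, served to ask whether the response differed by genotype or by time. No source states whether the 3 libraries of a group came from separate mice or cultures. The p-values measure the spread between libraries of a group, estimated over all 42 libraries, and that spread may be technical.

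LPS, a component of the outer membrane of Gram-negative bacteria, is bound by the TLR4 receptor complex. The adaptor Myd88 leads from TLR4 to NF-kappaB and to early cytokine genes, and the adaptor Ticam1 leads to interferon beta. Secreted interferon then acts back on the macrophage through a complex that holds Stat2 and Irf9 and raises a second, slower set of antiviral and antigen presentation genes. Irf5 is a transcription factor that acts downstream of Myd88 and is known in macrophages for its part in inflammatory cytokine expression.

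Levels below are TMM-scaled CPM, that is counts scaled to a common library size corrected for composition. Differences are log2 fold changes ± SE from the quasi-likelihood F test of edgeR, with p adjusted by Benjamini-Hochberg over the 11624 genes tested. A gene is said to have risen, fallen or changed where its adjusted p was under 0.05.

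The count of the targeted gene did not follow the genotype label. Irf5 (ENSMUSG00000029771, chromosome 6, 29526625 to 29541871, plus strand, GRCm38) stood at 354, 372 and 343 CPM in KO LPS 24 h and at 272, 279 and 281 CPM in KO Control 24 h. In WT LPS 24 h it stood at 265, 254 and 252 CPM, and in WT Control 24 h at 243, 231 and 235 CPM. Irf5 was thus higher in the libraries labelled KO than in those labelled WT under LPS by 0.47 ± 0.06 (adjusted p = 1.55e-07), and the difference of 0.23 ± 0.06 in Control did not pass (adjusted p = 0.105). These are counts of the whole gene, in which a deleted part is not kept apart from the rest, and the gene overlaps Tnpo3 on the other strand. Lyz2, the locus that carries Cre, stood at 5526 to 6160 CPM in the 6 KO libraries and at 10343 to 14587 CPM in the 6 WT libraries of 24 h, lower under the KO label by 1.11 ± 0.09 under LPS (adjusted p = 1.14e-11) and by 0.92 ± 0.09 in Control (adjusted p = 1.93e-09). Nnt, which is disrupted in the C57BL/6J substrain, differed between the labels by 0.38 ± 0.11 under LPS (adjusted p = 0.178) and by 0.31 ± 0.11 in Control (adjusted p = 0.649). Directions below therefore belong to the libraries labelled KO.

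The 6 libraries held 3849954 to 6808429 counts. A count of 3 corresponded to 0.441 to 0.779 CPM. All 15 macrophage markers were tested and present, and 9 rose, 5 fell and 1 was not called, over a range of -1.71 to 3.56. Over all genes tested, 19.9% rose and 21% fell. The markers thus moved both ways. Among those that rose were Fcgr1 and Adgre1 (F4/80), the latter at 2976 to 3048 CPM under LPS and 1161 to 1207 CPM in Control. Lyz2 was the marker not called. The 7 erythroid markers summed to at most 0.599 CPM in any of the 6 libraries, with 4 of these 7 at 0 counts. The 7 B cell markers summed to 17.3 to 28.8 CPM under LPS and 34.9 to 53.2 CPM in Control, and 1 of the 2 tested fell. The 6 dendritic cell markers summed to 4.93 to 7.46 CPM under LPS and 10.2 to 13.01 CPM in Control, and 2 of the 4 tested fell. The 5 mast cell and basophil markers summed to 5.23 to 6.76 CPM under LPS and 12.2 to 13.8 CPM in Control, and 2 of the 3 tested fell. The 10 T and NK cell markers summed to 26.8 to 40.8 CPM under LPS and 26.2 to 36.4 CPM in Control, and the 1 tested was not called. The 10 granulocyte markers summed to 42.2 to 63.5 CPM under LPS and 136 to 208 CPM in Control, and 4 of the 5 tested fell, S100a9 by 1.83, Ngp by 1.76, Ltf by 1.67 and S100a8 by 0.74. The part of such cells in the results was not tested. In bulk RNA, fewer cells of a type and less RNA per cell cannot be told apart. The 8 fibroblast markers summed to 192, 5.22 and 22.03 CPM in the 3 LPS libraries and to 169, 62.8 and 55.6 CPM in the 3 Control libraries, so that LPS library 1 stood apart from the other two. Transcripts encoded by the mitochondrial genome held 5.60% to 6.77% of counts under LPS and 9.09% to 9.34% in Control.

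LPS changed 4750 genes at 24 h. Of the 11624 genes tested, 2310 rose (19.9%) and 2440 fell (21%), with 696 of the former and 864 of the latter changed by more than 1 on the log2 scale. Rises reached further than falls, since 170 genes rose and 70 fell by more than 3. The 2 groups of 3 libraries did not overlap for 5830 genes (50.2%). The median over all genes tested was -0.01.

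**Figure D1:**
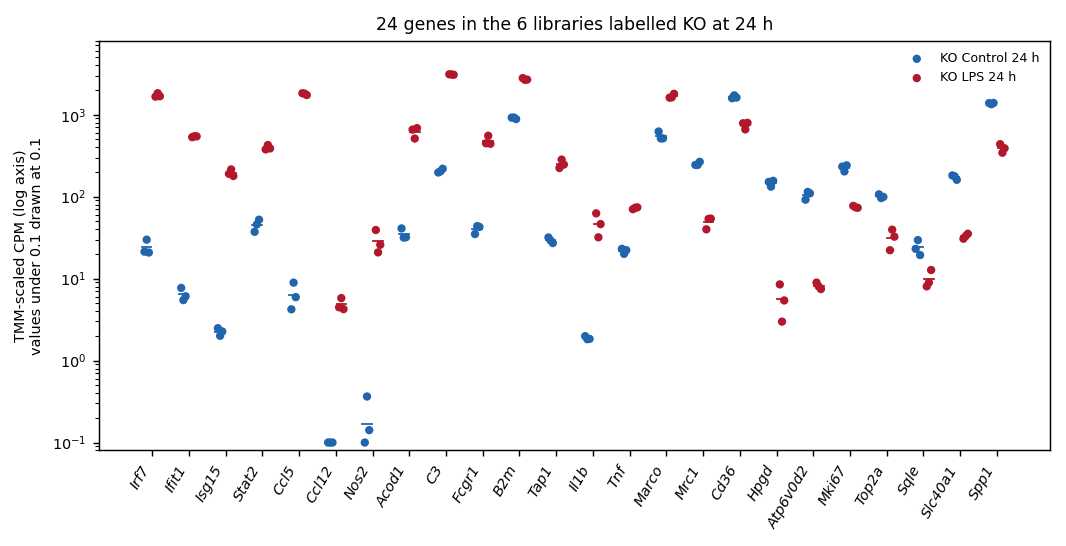
TMM-scaled CPM of 24 genes on a log axis in each library of KO Control 24 h (blue points) and KO LPS 24 h (red points), with short lines at the group means; values under 0.1 are drawn at 0.1. The genes were picked from those named in the text with their values known, so that the gap between the groups in each is no result; Irf7 lies at 1662 CPM or more under LPS and Hpgd at 8.50 CPM or less.

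The 12 largest rises, among genes at 20 CPM or more under LPS and with no overlap between groups, ran from 7.01 to 8.62 on the log2 scale in the 6 with over 3 Control counts. Ccl5, a chemokine that draws T cells and monocytes, stood at 1829, 1811 and 1741 CPM under LPS and at 4.22, 8.93 and 5.95 CPM in Control, a rise of 8.10 ± 0.12 (adjusted p = 1e-44). Slfn1, a Schlafen family member that restrains lymphocyte growth, rose from 0.182 to 0.566 CPM to 139 to 170 CPM, by 8.62 ± 0.26 (adjusted p = 1.74e-31). Ifi44, an interferon-induced gene, stood at 211, 220 and 218 CPM under LPS against 0.497, 1.46 and 1.42 CPM, and rose by 7.47 ± 0.27 (adjusted p = 1.46e-28). These genes were picked for a large change with no overlap, so that the gap between their groups is no separate result.

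Ms4a4c, a membrane-spanning protein gene, rose by 7.12 ± 0.27 to 186 to 203 CPM. Ifi208, of the DNA-sensing PYHIN family, rose by 7.01 ± 0.35 to 57.6 to 74.0 CPM. Susd2, a membrane protein gene, rose by 7.11 ± 0.49 to 29.1 to 42.6 CPM. For the other 6 of these 12 genes the 3 Control libraries together held 1 to 3 counts, so that the ratio of summed counts is given with its exact 95% interval, which covers counting error only. Ifit1bl1, an Ifit family member, was 511 times higher (91.4 to 20221). The chemokine Cxcl9 was 331 times higher (91.4 to 2739), and Ifi205, another PYHIN member, 291 times higher (99.3 to 1413). Slfn4 was 194 times higher (66.0 to 942), the apolipoprotein L gene Apol9a 193 times higher (53.1 to 1598), and Nos2, the inducible nitric oxide synthase, 154 times higher (52.3 to 747). Ifit1bl1, Slfn4, Ifi205 and Apol9a have close paralogs, and their counts are uncertain for that reason.

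All 34 antiviral interferon-stimulated genes tested rose, by a median of 4.24 and a range of 1.77 to 8.10, and none overlapped between the groups. Over all genes tested, 19.9% rose and 50.2% did not overlap. The list was chosen with earlier results of these data known. Ifit1, which binds foreign RNA caps, stood at 533, 547 and 545 CPM under LPS and 7.70, 5.47 and 6.09 CPM in Control, a rise of 6.42 ± 0.15 (adjusted p = 1.2e-35). Isg15, a ubiquitin-like modifier, stood at 190.3, 215 and 179 CPM against 2.48, 2.01 and 2.27 CPM, a rise of 6.43 ± 0.21 (adjusted p = 1.19e-30). Rsad2 (viperin) rose by 5.01 ± 0.15 and Mx1 by 5.74 ± 0.26. The smallest rises of the list were those of Eif2ak2 (PKR, 1.77) and Samd9l (2.10).

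The promoters of Isg15, Ifit1, Socs1, B2m, Il6 and Nfkbia are shown as examples, picked because their windows hold letters of the motifs described below. Whether interferon or NF-kappaB raised these genes here was not tested. Each is the 200 bases before the start of the RefSeq transcript (GRCm38.p6), written 5′ to 3′ on the strand of the gene. Capitals mark matches on either strand to the core of the interferon-stimulated response element (ISRE), searched as GAAA, any 2 bases and GAAA again, or to a kappaB site, searched as GGG, any 2 bases and TTTCC. The Isg15 window was chr4:156200819-156201018 (minus strand), with 3 overlapping ISRE matches that start 78, 72 and 66 bases before the start. The Ifit1 window was chr19:34640689-34640888 (plus strand), with matches 104 and 85 bases before it. The Socs1 window was chr16:10785537-10785736 (minus strand), with overlapping matches 83 and 77 bases before it. The B2m window was chr2:122147487-122147686 (plus strand), with an ISRE match 139 and a kappaB match 126 bases before it. The Il6 window was chr5:30012914-30013113 (plus strand), with a kappaB match 44 bases before it. The Nfkbia window was chr12:55492648-55492847 (minus strand), with a kappaB match 29 bases before it.
Isg15: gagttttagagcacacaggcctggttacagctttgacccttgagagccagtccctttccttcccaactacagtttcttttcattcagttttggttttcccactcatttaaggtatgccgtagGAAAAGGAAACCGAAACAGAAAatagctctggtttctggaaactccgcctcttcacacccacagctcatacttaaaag
Ifit1: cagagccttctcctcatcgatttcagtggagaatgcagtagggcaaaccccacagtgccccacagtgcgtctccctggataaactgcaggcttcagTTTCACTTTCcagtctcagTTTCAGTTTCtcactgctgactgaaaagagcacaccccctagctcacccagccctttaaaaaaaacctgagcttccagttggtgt
Socs1: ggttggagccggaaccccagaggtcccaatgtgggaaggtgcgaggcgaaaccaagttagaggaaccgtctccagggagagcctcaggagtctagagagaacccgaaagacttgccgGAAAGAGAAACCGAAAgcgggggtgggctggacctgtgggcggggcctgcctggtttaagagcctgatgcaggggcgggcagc
B2m: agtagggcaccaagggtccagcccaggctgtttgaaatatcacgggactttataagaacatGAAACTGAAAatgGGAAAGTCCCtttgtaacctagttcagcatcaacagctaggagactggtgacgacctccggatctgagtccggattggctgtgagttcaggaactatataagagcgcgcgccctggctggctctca
Il6: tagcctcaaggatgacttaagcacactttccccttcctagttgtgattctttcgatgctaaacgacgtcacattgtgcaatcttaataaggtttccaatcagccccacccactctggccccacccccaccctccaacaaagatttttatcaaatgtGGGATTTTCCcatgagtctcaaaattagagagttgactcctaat
Nfkbia: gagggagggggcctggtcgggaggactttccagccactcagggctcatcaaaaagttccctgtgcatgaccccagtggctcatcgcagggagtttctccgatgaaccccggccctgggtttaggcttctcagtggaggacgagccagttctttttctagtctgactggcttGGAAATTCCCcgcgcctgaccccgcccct

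Among all 32851 promoter windows of RefSeq, from 250 bases before to 50 bases after a start, 3.44% held an ISRE match and 1.63% a kappaB match. Of the 8900 genes tested that had a window, 4.04% held an ISRE match. The share was 7.72% of the 1840 genes that rose and had a window, 3.15% of the 1843 that fell and 3.07% of the 5217 that were not called. It was 15 of 25 antiviral genes (60%), 8 of 9 interferon-inducible GTPases (88.9%) and 4 of 15 MHC class I genes (26.7%). kappaB matches were held by 3.04% of the genes that rose and 1.74% of those that fell, by 5 of 14 NF-kappaB genes (35.7%) and by 4 of 13 chemokines (30.8%). The sterol regulatory element TCACNCCAC was held by 0 of 16 sterol synthesis genes and by 1.24% of all windows. A match says only that these letters stand in the window.

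The interferon-inducible GTPases, which attack the vacuoles of intracellular pathogens, rose in 13 of 14 members, against 19.9% of all genes tested. Their median was 3.55. Igtp stood at 96.9, 92.4 and 91.7 CPM under LPS and 10.4, 10.9 and 10.1 CPM in Control, a rise of 3.16 ± 0.16, and it overlaps Irgm2 on the same strand. Iigp1 rose by 5.75 ± 0.32 and Gbp2 by 6.06. Gbp8, at 0.92, was the member not called. Several of these genes are near-identical copies, and reads may be shared between them.

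Of 8 interferon regulatory factors tested, 4 rose and 1 fell, against 19.9% and 21% of all genes tested. Irf7, which drives interferon genes and is itself induced by interferon, stood at 1662, 1831 and 1683 CPM under LPS and 21.4, 29.9 and 20.8 CPM in Control, a rise of 6.17 ± 0.22 (adjusted p = 3.04e-29). Irf9, a subunit of the interferon-activated complex, rose by 1.40, Irf1 by 1.38 ± 0.10 and Irf5 itself by 0.36 ± 0.06. Irf4, linked to alternative activation, fell by 2.35. The lineage factor Irf8 was at 230, 254 and 233 CPM under LPS and 229, 236 and 240 CPM in Control, and differed by 0.02 ± 0.07 (adjusted p = 0.829).

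Signalling genes of the interferon and cytokine receptors (JAK, STAT and SOCS) rose in 11 and fell in 2 of 22 members, with a median of 0.64. Over all genes tested, 19.9% rose and 21% fell. Stat2, which binds Irf9 in the interferon-activated complex, stood at 377.5, 427 and 388 CPM under LPS and 37.25, 45.9 and 52.4 CPM in Control, a rise of 3.11 ± 0.11. The feedback inhibitors Socs3 and Socs1 rose by 3.97 ± 0.20 and 2.62 ± 0.49. Il4ra, the receptor of interleukin 4, rose by 0.55 ± 0.08. Socs6 fell by 1.28 and Stat4 by 0.93.

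Genes of MHC class I presentation rose in all 18 members tested (19.9% of all genes tested), by a median of 1.93. B2m, the light chain of class I molecules, stood at 2800, 2671 and 2685 CPM under LPS and at 922, 925 and 885 CPM in Control, a rise of 1.58 ± 0.08. The peptide transporter Tap1 rose by 3.11 ± 0.12, from 27.2 to 31.8 CPM to 224 to 284 CPM. The immunoproteasome subunits Psmb8 and Psmb10 rose by 2.15 and 2.22, and the trans-activator of the class I genes, Nlrc5, rose by 1.78. H2-Q7 rose by 6.05 and H2-Q4 by 3.56, and these belong to a family of near-identical genes.

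MHC class II genes rose in 5 of 11 members, against 19.9% of all genes tested, with a median of 0.29. H2-Ab1 stood at 134, 135 and 109 CPM under LPS and 59.8, 59.6 and 69.5 CPM in Control, a rise of 0.98 ± 0.16, and the invariant chain Cd74 rose by 0.65 ± 0.15. Ciita, the class II trans-activator, stood at 4.92 to 9.52 CPM and 6.70 to 9.63 CPM and differed by -0.25 ± 0.32 (adjusted p = 0.571). Among costimulatory and checkpoint ligands, 4 of 9 rose and 3 fell, against 19.9% and 21% of all genes tested. Cd274 (PD-L1) rose by 2.31 ± 0.08, Cd40 by 1.63 ± 0.20 and Cd86 by 1.30 ± 0.22, while Cd83 fell by 2.18 and Havcr2 by 1.56.

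Of 17 NF-kappaB subunits and inhibitors, 14 rose and 1 fell (19.9% and 21% of all genes tested), with a median of 1.10. Nfkb2 stood at 116, 107 and 129 CPM under LPS and 55.6, 50.1 and 42.2 CPM in Control, a rise of 1.27 ± 0.09, and Relb rose by 1.34 ± 0.12. The inhibitors Nfkbia and Tnfaip3 rose by 1.25 ± 0.09 and 0.77 ± 0.08. The largest rise was that of the kinase gene Ikbke, at 2.42. Nfkbid fell by 0.48, and the subunit gene Rel was not called, at 0.00.

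Toll-like receptors and their pathway rose in 12 and fell in 2 of 21 members, against 19.9% and 21% of all genes tested. Their median was 0.48. Tlr2 stood at 149, 120.4 and 142 CPM under LPS and 40.5, 35.2 and 37.9 CPM in Control, a rise of 1.86 ± 0.12. Tlr4, the LPS receptor, stood at 84.4, 68.9 and 76.6 CPM against 68.5, 72.4 and 87.2 CPM, and its groups overlapped (0.00 ± 0.09, adjusted p = 0.983). Myd88 rose by 1.02 ± 0.08, and Irak3 (IRAK-M), an inhibitor of the pathway, by 2.38 ± 0.12. Tlr13 fell by 1.08.

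Of 23 cytokines tested, 14 rose and 1 fell (19.9% and 21% of all genes tested), with a median of 1.57. Tnf stood at 70.4, 73.2 and 74.1 CPM under LPS and 23.1, 20.1 and 22.2 CPM in Control, a rise of 1.74 ± 0.11. Il1b stood at 62.6, 31.9 and 46.3 CPM against 1.99, 1.82 and 1.84 CPM, a rise of 4.65 ± 0.26. Il1rn, the antagonist of the interleukin 1 receptor, rose by 3.90 ± 0.16, from 10.4 to 18.8 CPM to 210.2 to 237 CPM.

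Several cytokines were near the limit of detection. Il6 had 15 counts under LPS and 0 in Control, and was at least 4.18 times higher, taken against 3 counts over the Control group. Il12b stood at 4.77, 4.30 and 5.71 CPM and had 2 counts in Control, a ratio of 39.25 (10.6 to 329). Il10, the anti-inflammatory cytokine, stood at 4.32, 6.72 and 3.51 CPM under LPS and 1.49, 4.19 and 2.12 CPM in Control. Its groups overlapped, its rise of 0.85 ± 0.33 passed by a narrow margin (adjusted p = 0.0331). It was no longer called without LPS library 2 (0.231), Control library 1 (0.155) or Control library 3 (0.163). The interferon gene Ifnb1 had a mean of 0.0622 CPM under LPS and 0 CPM in Control.

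Of 19 chemokines tested, 13 rose and none fell (19.9% and 21% of all genes tested), with a median of 2.37. Cxcl10, the interferon-induced ligand of Cxcr3, stood at 9.54, 10.1 and 10.7 CPM under LPS with 3 counts in Control, a ratio of 53.2 (17.9 to 260.1). The monocyte attractants Ccl7 and Ccl2 rose by 5.26 and 4.11, and the neutrophil attractant Cxcl3 by 3.97. Ccl4 stood at 16.6, 19.6 and 22.3 CPM under LPS and at 19.1, 22.2 and 16 CPM in Control, a difference of 0.04 ± 0.15 (adjusted p = 0.855). Ccl24, an eosinophil attractant, had 1 count under LPS and 0 in Control and was not tested. Among 12 chemoattractant receptors, 4 rose and 3 fell, against 19.9% and 21% of all genes tested. Fpr2 and Fpr1, receptors of bacterial formyl peptides, rose by 4.32 and 2.32 and Ccrl2 by 1.19 ± 0.24, whereas Ccr2 fell by 2.04 ± 0.50, Cx3cr1 by 1.16 ± 0.24 and Cxcr4 by 0.92. Cx3cr1 spans other counted genes on both strands.

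Genes of nitric oxide, arginine and itaconate metabolism rose in 7 and fell in 1 of 11 members, with a median of 2.47. Over all genes tested, 19.9% rose and 21% fell. Acod1, which makes itaconate, stood at 658, 512 and 686 CPM under LPS and 40.97, 31.7 and 32 CPM in Control, a rise of 4.17 ± 0.15. Slc7a2, the arginine transporter, rose by 3.60 ± 0.18, and Ass1, which remakes arginine, by 3.04. Arg1, which competes with Nos2 for arginine, rose by 2.47 ± 0.85 at 1.49 to 2.49 CPM (adjusted p = 0.0168), a call lost without LPS library 3 (0.0534), Control library 1 (0.051) or Control library 2 (0.0753). Ddah2 fell by 2.92.

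Complement genes rose in 9 and fell in 1 of 12 members (19.9% and 21% of all genes tested), with a median of 1.18. C3, the central component, stood at 3120, 3097 and 3075 CPM under LPS and 197, 204 and 219.5 CPM in Control, a rise of 3.90 ± 0.10 (adjusted p = 4.24e-34). Cfb, which forms the alternative pathway convertase with C3, stood at 11.3, 14 and 12.4 CPM under LPS and had 0 counts in Control, and was at least 65.7 times higher, taken against 3 counts over the Control group. C1qa rose by 0.90 ± 0.08.

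The Fc gamma receptors, which bind immunoglobulin G, rose in 4 of 5 members and fell in 1, against 19.9% and 21% of all genes. Fcgr1, the high-affinity receptor, stood at 449, 554 and 442 CPM under LPS and 35.01, 43.7 and 42.8 CPM in Control, a rise of 3.56 ± 0.12. Fcgr4 rose by 1.93 ± 0.12, the inhibitory Fcgr2b by 1.32 and the shared signalling chain Fcer1g by 1.23. Fcgr3 stood at 94.98, 102 and 86.1 CPM against 251, 257 and 256 CPM, and fell by 1.44 ± 0.08.

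Inflammasome and pyroptosis genes rose in 10 of 13 members (19.9% of all genes tested), with a median of 0.58. The sensor Nlrp3 stood at 42.9, 38.1 and 47.6 CPM under LPS and 17.6, 22.1 and 24.8 CPM in Control, a rise of 0.97 ± 0.14. Casp4, the sensor of cytosolic LPS, rose by 1.23 ± 0.17, the pore protein gene Gsdmd by 1.51 and the nucleic acid sensor Zbp1 by 5.65. Aim2 was at 26.5 to 30.5 CPM and 25.6 to 27.9 CPM and differed by 0.10 ± 0.13 (adjusted p = 0.598).

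**Figure D2:**
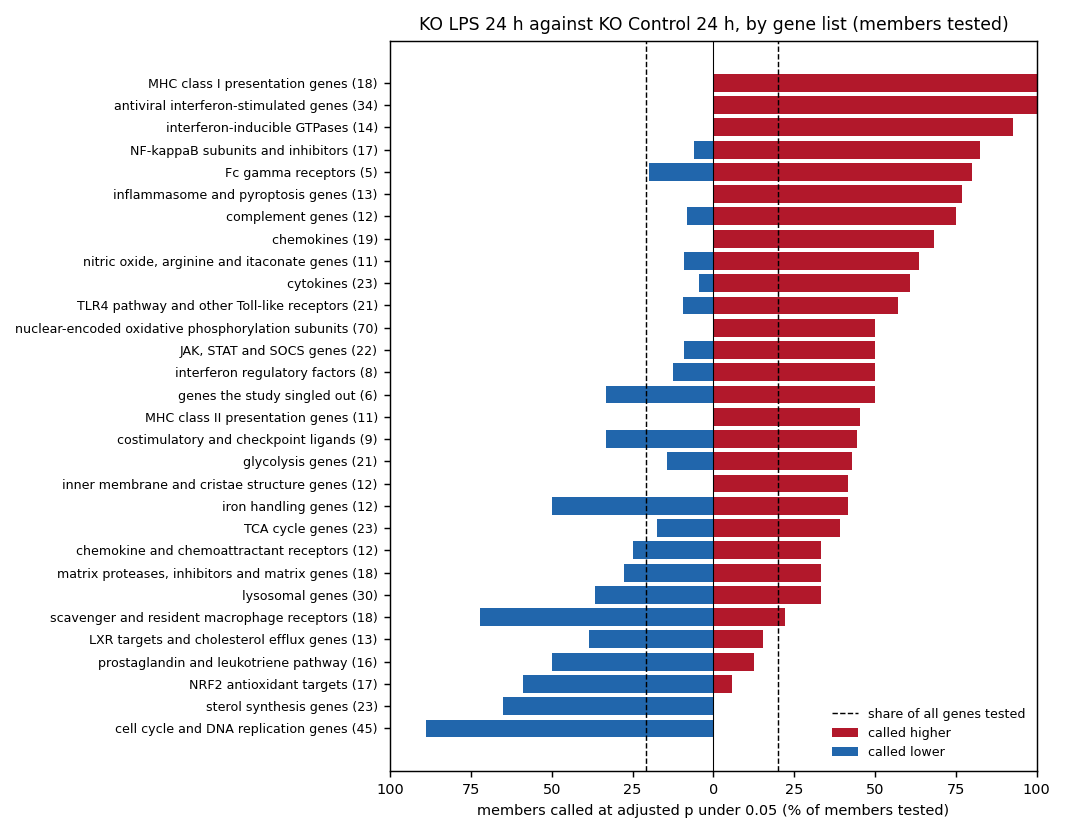
Share of the members tested of each of 30 gene lists that were called higher (red, to the right) or lower (blue, to the left) in KO LPS 24 h against KO Control 24 h, with the number tested in parentheses; dashed lines mark the shares over all genes tested, 19.9% higher and 21% lower. MHC class I and antiviral genes were higher in every member tested, and cell cycle genes were lower in 40 of 45.

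The 12 largest falls, among genes at 20 CPM or more in Control and with no overlap between groups, ran from -2.72 to -4.66 on the log2 scale. Hpgd, which inactivates prostaglandins, stood at 8.50, 2.99 and 5.42 CPM under LPS and 152, 133 and 156 CPM in Control, a fall of -4.66 ± 0.15 (adjusted p = 3.61e-30). Atp6v0d2, a subunit of the vacuolar proton pump, stood at 8.95, 8.03 and 7.47 CPM against 91.9, 114 and 110 CPM, a fall of -3.70 ± 0.23 (adjusted p = 3.07e-19). Egr2, a transcription factor linked to alternative activation, stood at 5.37, 2.43 and 4.25 CPM against 24.3, 29.3 and 28.6 CPM, a fall of -2.74 ± 0.21.

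The remaining 9 of these 12 genes fell by 2.72 to 3.10. They were the sialyltransferase gene St6gal1 (-3.10 ± 0.17), the actin oxidase gene Mical1 (-3.08 ± 0.14), the kinetochore gene Cenpf (-3.07 ± 0.28), the histone gene Hist1h2af (-2.91 ± 0.27) and the ATP-degrading ectoenzyme gene Entpd1 (-2.83 ± 0.17). Reps2, which acts in endocytosis, followed at -2.83 ± 0.11, the integrin Itgax (CD11c) at -2.82 ± 0.20, Cd28 at -2.79 ± 0.15 and the heparan sulfatase gene Sulf2 at -2.72 ± 0.17. Mical1 overlaps Smpd2 and Sulf2 overlaps Ncoa3 on the other strand, and histone genes share reads with their copies.

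Of 45 cell cycle and DNA replication genes, 40 fell and none rose, against 21% and 19.9% of all genes tested. Their median was -1.13. Mki67, a marker of dividing cells, stood at 77.2, 74.3 and 73.2 CPM under LPS and 233, 203 and 241 CPM in Control, a fall of -1.59 ± 0.11. Top2a, the topoisomerase of mitosis, stood at 22.2, 39.6 and 32.5 CPM against 107, 96.2 and 99.4 CPM, a fall of -1.69 ± 0.14. Among the mitotic genes Cenpf was at -3.07, the cyclin gene Ccnb2 at -2.92 and Birc5 at -2.36, whereas the replication helicase gene Mcm5 fell by 0.62 ± 0.16 and Mcm3 by 0.30. Ccnd1, the cyclin that answers to growth factors, fell by 1.37 ± 0.17. The 5 members that were not called lay between -0.70 (Prim1) and 0.43 (Gins1).

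Sterol synthesis genes fell in 15 of 23 members and none rose (21% and 19.9% of all genes tested), with a median of -0.75. Sqle, which oxidises squalene, stood at 8.05, 8.96 and 12.7 CPM under LPS and 23.1, 29.5 and 19.4 CPM in Control, a fall of -1.26 ± 0.21. The groups did not overlap for 15 of the 23, against 50.2% of all genes tested.

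Among LXR targets and cholesterol efflux genes, 2 of 13 rose and 5 fell, with a median of -0.10. The shares over all genes tested were 19.9% and 21%. The receptor gene Nr1h3 (LXR alpha) stood at 156, 193 and 185 CPM under LPS and 37.7, 34.99 and 36.1 CPM in Control, a rise of 2.30 ± 0.12. Apoe, which carries cholesterol out of the macrophage, fell by 0.67 ± 0.05, from 22826 to 23888 CPM to 14314 to 15116 CPM. The desaturases Scd1 and Scd2 fell by 1.32 and 1.32, and Mertk, which mediates uptake of apoptotic cells, by 0.45 ± 0.08. The efflux pump Abca1 was at 803 to 838 CPM against 776 to 794 CPM and differed by 0.05 ± 0.06 (adjusted p = 0.54).

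Scavenger and resident macrophage receptors fell in 13 and rose in 4 of 18 members, against 21% and 19.9% of all genes tested. Their median was -1.03. The mannose receptor Mrc1 stood at 39.96, 53.6 and 54.03 CPM under LPS and 244, 244 and 267 CPM in Control, a fall of -2.36 ± 0.12. The complement receptor Vsig4 fell by 3.08, the beta-glucan receptor Clec7a by 2.01, the lipid receptor Trem2 by 1.23 and the fatty acid receptor Cd36 by 1.13 ± 0.08. Those that rose were Siglec1 by 2.90, Axl by 1.82, Marco by 1.61 ± 0.10 and Msr1 by 0.43 ± 0.06. Marco, a receptor of unopsonised bacteria, stood at 1616, 1634 and 1801 CPM under LPS and at 625, 514 and 515 CPM in Control.

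Prostaglandin and leukotriene genes rose in 2 and fell in 8 of 16 members, against 19.9% and 21% of all genes tested. The 2 that rose are the inducible enzymes of prostaglandin E2 synthesis. Ptgs2 (COX-2) stood at 34.7, 16.6 and 37.6 CPM under LPS and 8.44, 3.65 and 5.66 CPM in Control, a rise of 2.40 ± 0.26, and Ptges rose by 4.86 ± 0.21, from 2.48 to 2.69 CPM to 63.5 to 88.6 CPM. The constitutive Ptgs1 fell by 1.16 ± 0.14, and the leukotriene enzymes Ltc4s and Alox5 fell by 2.22 and 1.29.

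Iron handling genes rose in 5 and fell in 6 of 12 members, against 19.9% and 21% of all genes tested. The iron exporter Slc40a1 (ferroportin) stood at 30.7, 33.1 and 35.3 CPM under LPS and 182, 177 and 161 CPM in Control, a fall of -2.39 ± 0.14, and the transferrin receptor Tfrc fell by 2.25. Lcn2, which takes iron from bacterial siderophores, stood at 318, 276 and 336 CPM against 18.4, 20.8 and 9.91 CPM, a rise of 4.29 ± 0.20. Lcn2 is also a granule gene of neutrophils, whose markers are given above, and the part of such cells in its value was not tested. Hmox1, which degrades haem, differed by -0.22 ± 0.07 (adjusted p = 0.0152) with overlapping groups, a call lost without LPS library 2 (0.093), Control library 1 (0.143) or Control library 2 (0.0517).

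NRF2 antioxidant targets fell in 10 and rose in 1 of 17 members (21% and 19.9% of all genes tested), with a median of -0.22. Cat (catalase) stood at 675, 558 and 682 CPM under LPS and 1274, 1240 and 1244 CPM in Control, a fall of -0.97 ± 0.07, and Gclc, which begins glutathione synthesis, fell by 1.67. The one that rose was Keap1, the inhibitor of NRF2, by 0.83. Nqo1, at 0.37 ± 0.18 (adjusted p = 0.103), and Slc7a11, at 0.21 ± 0.15 (adjusted p = 0.257), were not called. Without LPS library 2, Slc7a11 was called, at 0.43 (adjusted p = 0.0133). When every gene with a count was tested, Nqo1 (0.0272) and Slc7a11 (0.0273) were called. Nqo1 was also called with only the libraries compared (0.01).

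Lysosomal genes rose in 10 and fell in 11 of 30 members (19.9% and 21% of all genes tested), with a median of -0.01. Lipa, the lysosomal lipase, stood at 635, 603 and 647 CPM under LPS and 1146, 1180 and 1174 CPM in Control, a fall of -0.89 ± 0.05, and Hexa fell by 0.49 ± 0.06. Ctsz and Npc2 rose by 1.47 and 0.86.

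Matrix proteases, their inhibitors and matrix genes rose in 6 and fell in 5 of 18 members, against 19.9% and 21% of all genes. Mmp14, a membrane-bound collagenase, stood at 802, 827 and 869 CPM under LPS and 259, 274 and 303 CPM in Control, a rise of 1.58 ± 0.08, and Mmp13 rose by 0.82 ± 0.15. Spp1 (osteopontin) stood at 437, 344 and 389.7 CPM against 1387, 1344 and 1392 CPM, a fall of -1.81 ± 0.16, and Mmp12, the macrophage elastase, fell by 2.50. Fn1 (fibronectin) stood at 51.0, 1.12 and 2.05 CPM under LPS and 64.8, 46.7 and 27.9 CPM in Control, and was not called (-1.28 ± 0.93, adjusted p = 0.285). LPS library 1, whose fibroblast markers are given above, held the high value, and without it the difference was -4.77 (adjusted p = 0.00945). The part of fibroblasts in this value was not tested. When every gene with a count was tested, Fn1 was called with all 6 libraries kept, at -1.29 (adjusted p = 1.65e-18).

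Energy metabolism changed by smaller steps. Glycolysis genes rose in 9 and fell in 3 of 21 members (19.9% and 21% of all genes tested), with a median of 0.21. Hk3, a hexokinase of myeloid cells, stood at 468, 481 and 465 CPM under LPS and 247, 268 and 268 CPM in Control, a rise of 0.85 ± 0.08, and Pfkfb3, which activates phosphofructokinase, rose by 0.97 ± 0.06. The glucose transporter gene Slc2a1 fell by 0.42 ± 0.13 (adjusted p = 0.00924), a call lost without LPS library 2 (0.0589) or Control library 1 (0.0822). Ldha, at 0.21 ± 0.09, was not called (adjusted p = 0.0594). It was called without Control library 2 (0.0476), when every gene with a count was tested (0.0209) and with only the libraries compared (0.00386).

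TCA cycle genes rose in 9 and fell in 4 of 23 members (19.9% and 21% of all genes tested), with a median of 0.18. Sdhb, a subunit of succinate dehydrogenase, stood at 145, 152 and 148 CPM under LPS and 101.1, 84.8 and 83.4 CPM in Control, a rise of 0.74 ± 0.08. Suclg2 fell by 0.79 and the cytosolic Idh1 by 0.26 ± 0.10, the latter no longer called without LPS library 2 (adjusted p = 0.159), LPS library 3 (0.114) or Control library 3 (0.0964). Idh2 was at 53.7 to 63.3 CPM against 53.9 to 68.2 CPM and was not called (-0.06 ± 0.12, adjusted p = 0.71).

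Nuclear-encoded subunits of oxidative phosphorylation rose in 35 of 70 members and none fell, against 19.9% and 21% of all genes tested. Their median was 0.29. Cox5a, of complex IV, stood at 82.8, 89.3 and 81.8 CPM under LPS and 43.7, 55.2 and 54.7 CPM in Control, a rise of 0.71 ± 0.11. Uqcrc1 of complex III rose by 0.42 ± 0.09, Atp5a1 of the ATP synthase by 0.21 ± 0.06 and Atp5o by 0.83. Ndufa1 (0.00 ± 0.18, adjusted p = 0.993) and Ndufs1 (-0.10 ± 0.09, adjusted p = 0.414) of complex I were not called, and both pairs of groups overlapped.

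Of 12 inner membrane and cristae structure genes, 5 rose and none fell, against 19.9% and 21% of all genes tested. Ghitm, an inner membrane protein gene, stood at 197, 182 and 206 CPM under LPS and 132, 132 and 120.1 CPM in Control, a rise of 0.61 ± 0.07. Immt, which shapes cristae junctions, and Opa1, which fuses inner membranes, differed by 0.14 ± 0.08 (adjusted p = 0.167) and -0.03 ± 0.08 (adjusted p = 0.832). Of the 6 genes that the study singled out, 3 rose and 2 fell, against 19.9% and 21% of all genes tested. A list chosen on data of this study is not independent evidence of a direction. Atf5, a stress-response transcription factor, rose by 0.91 ± 0.13 and the lipid pump Abcg1 by 0.49 ± 0.07, whereas Lrrc27 fell by 1.65 ± 0.20 and Fnip2 by 0.32 ± 0.06. Syce2, at 2.78 to 8.201 CPM in the 6 libraries, was not called (-0.71 ± 0.31, adjusted p = 0.0586), was called without LPS library 2 (0.0354) or Control library 1 (0.0488), and overlaps Gcdh on the other strand.

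Whether the response at 24 h differed from that at 2 h was tested as the difference of the 2 log2 fold changes, with the Control of each time. At 2 h, 1711 genes rose (14.7%) and 1065 fell (9.16%). The 24 h value was the higher for 1667 genes (14.3%) and the lower for 2213 genes (19%). Of the genes that rose at 24 h, 770 had also risen at 2 h, which is 33.3% of the 24 h genes and 45.0% of the 2 h genes. Of the genes that fell at 24 h, 359 had also fallen at 2 h, 14.7% of the 24 h genes and 33.7% of the 2 h genes. Another 301 genes fell at 24 h after a rise at 2 h, and 124 rose after a fall.

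**Figure D3:**
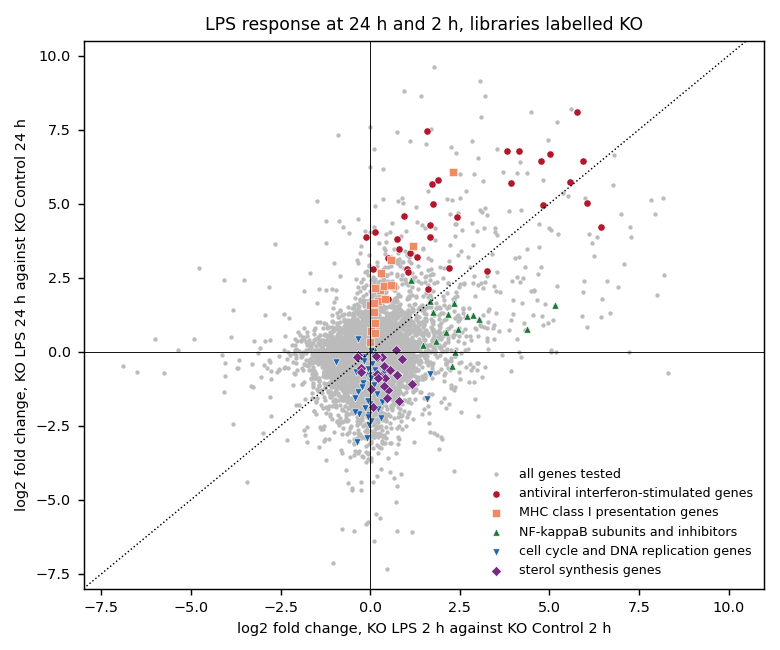
Each point is a gene tested, with its log2 fold change to LPS at 2 h (horizontal axis) and at 24 h (vertical axis) in libraries labelled KO, and colours mark 5 gene lists; the dotted line marks equal values. NF-kappaB genes lie mostly below the line and MHC class I genes above it, and most cell cycle and sterol genes lie below 0 on the vertical axis.

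NF-kappaB genes rose in 16 of 17 members at 2 h (14.7% of all genes tested), with a median of 2.28. By the test of the difference, 14 of the 17 were lower at 24 h and 1 higher, against 19% and 14.3% of all genes tested. Tnfaip3 (A20) stood at 2113, 2025 and 2033 CPM under LPS at 2 h against 98.5 to 100.3 CPM in Control, and at 76.3, 64.1 and 69.8 CPM at 24 h against 39.7 to 43.6 CPM. Its 24 h response was lower by 3.61 ± 0.11 (adjusted p = 4.89e-31). Tnf was lower by 2.91 ± 0.15, and Il1b by 3.29 ± 0.56, with 823 to 875 CPM at 2 h.

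The genes with the smallest adjusted p among those with a smaller 24 h response were, beside Tnfaip3, the proteoglycan gene Sdc4 (-3.68 ± 0.11), Tnfaip2 (-2.47 ± 0.09), Ccl4 (-5.01 ± 0.19) and Ppp1r15a (GADD34, -3.79 ± 0.15). Ccl4 stood at 758, 826 and 830 CPM under LPS at 2 h, against 23.5 to 25.4 CPM in Control, and its 24 h groups overlapped. Egr2 rose by 1.78 ± 0.14 at 2 h before the fall at 24 h given above. Mki67 rose by 1.59 ± 0.10 at 2 h, to 680.2 to 826 CPM, and its 24 h response was lower by 3.18 ± 0.15. It does not stand for its list at 2 h, when 3 of 45 cell cycle genes rose and the median was -0.04.

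MHC class I genes rose in 8 of 18 members at 2 h (14.7% of all genes tested), with a median of 0.25. By the test of the difference, all 18 were higher at 24 h (14.3% of all genes tested), by a median of 1.58. H2-T22, a class I gene, stood at 39.9, 51.3 and 52.3 CPM under LPS at 2 h against 37.8 to 43.8 CPM in Control, and at 504, 574 and 509 CPM at 24 h against 40.5 to 42.3 CPM. The difference was 3.43 ± 0.15 (adjusted p = 2.48e-24). H2-T22 has close paralogs. The other genes with the smallest adjusted p and a larger 24 h response were C3 (3.05 ± 0.14), Fcgr1 (3.81 ± 0.18), Ms4a6c (2.15 ± 0.11) and Ms4a6d (1.90 ± 0.09). Fcgr1 was not called at 2 h (-0.25 ± 0.13, adjusted p = 0.192).

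Antiviral genes were raised at both times, in 31 of 34 members at 2 h (14.7% of all genes tested) with a median of 1.69. By the test of the difference, 27 were higher and 3 lower at 24 h, against 14.3% and 19% of all genes tested. Irf7 was not called at 2 h (0.36 ± 0.23, adjusted p = 0.301) and its 24 h response was higher by 5.81 ± 0.32. Stat2 was higher by 2.30 at 24 h. Ifit1 had risen by 5.94 at 2 h, and its difference of 0.48 was not called (adjusted p = 0.153), while Rsad2 was lower at 24 h by 1.04 (adjusted p = 0.000544).

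Irf8 fell at 2 h, to 121, 128 and 113 CPM against 247, 260.1 and 267 CPM in Control (-1.10 ± 0.07), and its 24 h response was higher by 1.12 ± 0.10. Oxidative phosphorylation genes rose in 2 and fell in 4 of 70 members at 2 h, below the 14.7% and 9.16% of all genes tested. By the test of the difference, 33 were higher and none lower at 24 h (14.3% and 19% of all genes tested). Cell cycle genes rose in 3 and fell in 1 of 45 members at 2 h, also below these shares. By the test of the difference, 34 were lower at 24 h, against 19% of all genes tested. Sterol synthesis genes rose in 7 of 23 members at 2 h and none fell, against the same 2 h shares. By the test of the difference, 13 were lower at 24 h, against 19% of all genes tested.

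**Figure D4:**
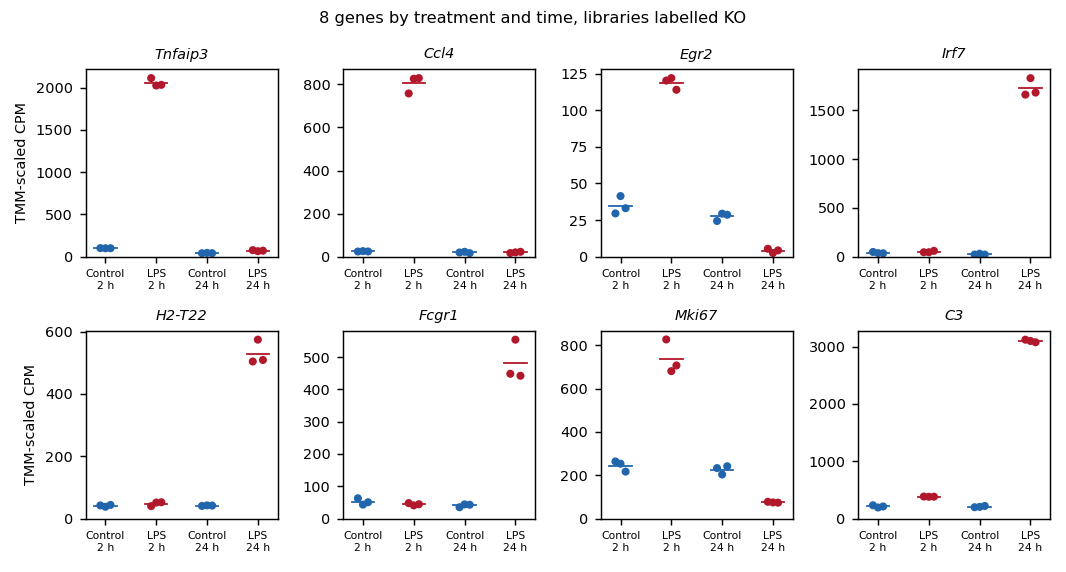
TMM-scaled CPM of 8 genes in each library labelled KO (3 points a group, short lines at the means), for Control (blue) and LPS (red) at 2 h and 24 h, each on its own axis from 0. Tnfaip3 and Ccl4 are high under LPS at 2 h, H2-T22, Fcgr1, Irf7 and C3 under LPS at 24 h, and Egr2 and Mki67 lie above Control at 2 h and below it at 24 h. Of 45 cell cycle genes, 3 rose at 2 h, Mki67 among them.

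Whether the 24 h response differed between the genotype labels was tested as the difference of the KO and the WT log2 fold change. In WT, 2280 genes rose (19.6%) and 2314 fell (19.9%). Of the genes that rose in KO, 1803 also rose in WT, which is 78.1% of the KO and 79.1% of the WT genes. Of those that fell, 1863 also fell in WT, 76.4% of the KO and 80.5% of the WT genes, and 0 genes changed in opposite directions. The difference of response was called for 1 of 11624 genes (0.00860%), which was lower in KO. At an unadjusted p under 0.05, 326 genes were higher and 302 lower, 5.4% of the genes tested, and DESeq2 called 2 genes. Over the 4750 genes that LPS changed in KO, the median size of the KO minus WT difference was 0.14, with a median SE of 0.17, and it was under 0.5 for 88.3% of them.

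The gene called was Fcgr3 (ENSMUSG00000059498, chromosome 1, 171051174 to 171064935, minus strand), a low-affinity receptor of immunoglobulin G. In WT it stood at 122, 140.3 and 130.4 CPM under LPS and at 235, 226 and 255 CPM in Control, a fall of 0.87 ± 0.08 on the log2 scale, beside the fall of 1.44 ± 0.08 in KO. The difference was -0.57 ± 0.11 (adjusted p = 0.0334). The Control values of the labels lay close together and the LPS values were lower under the KO label. The call was kept in 7 of 16 alternatives, with values of -0.63 to -0.51 and adjusted p from 0.00015 to 0.333. It was lost without KO Control library 1, 2 or 3, KO LPS library 1 or 3, WT Control library 1 or 2, or WT LPS library 2, and when only the libraries compared were fitted (0.0754).

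**Figure D5:**
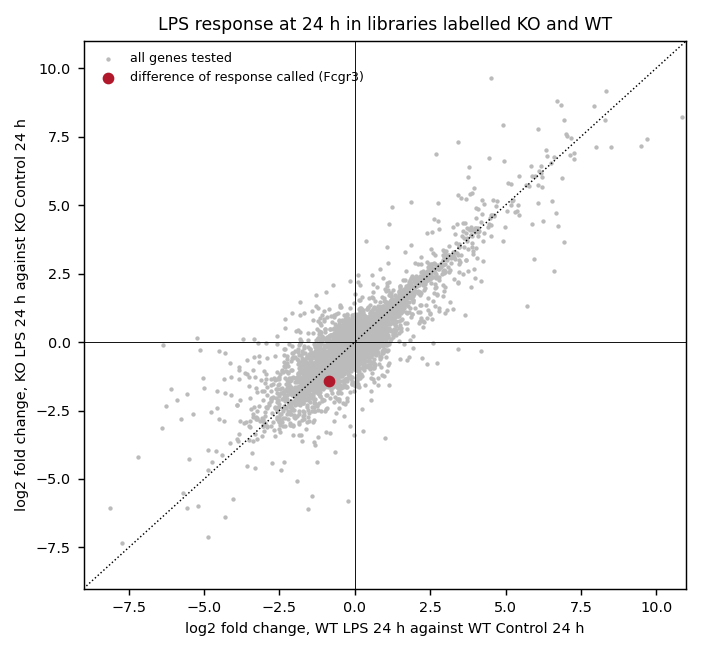
Each point is a gene tested, with its log2 fold change to LPS at 24 h in libraries labelled WT (horizontal axis) and KO (vertical axis); the dotted line marks equal values and the red point is Fcgr3, the gene whose difference was called. Fcgr3 lies at -0.87 in WT and -1.44 in KO.

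Over the 24 genes with the largest changes in KO, the KO minus WT difference ran from -2.66 (Cxcl9) to 1.81 (Ifit1bl1), and none was called. It was -0.19 for Ccl5, -0.01 for Irf7, -0.19 for Stat2, 0.24 for Ifit1, 0.05 for C3 and 0.22 for Hpgd. Over the 30 pathway lists, the median difference ran from -0.28 (matrix genes) to 0.11 (interferon-inducible GTPases). It was 0.06 for antiviral genes, 0.005 for MHC class I genes, 0.02 for NF-kappaB genes, -0.05 for cytokines, -0.01 for cell cycle genes and -0.04 for oxidative phosphorylation genes. Differences of genes with few counts in Control were imprecise, as for Cxcl9 (-2.66, adjusted p = 0.971) and Nos2 (-2.33, adjusted p = 0.971). Lcn2 rose in WT by 5.88 ± 0.23, from 4.46 to 7.87 CPM, and its KO minus WT difference of -1.59 ± 0.35 was not called (adjusted p = 0.236). It was called without KO Control library 3 and when every gene with a count was tested. The summed granulocyte markers stood at 54.1 to 64.0 CPM in WT Control 24 h, below the KO Control libraries, and their part in this value was not tested.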

How the data were processed

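RNA was sequenced as ribodepleted, stranded total RNA. The authors aligned the reads to mouse mm10 with STAR 2.7.3a and deposited a table of raw counts for each gene, with no scaling. The submitters' processing notes also name fastp 0.19.11 and the build mm9. The annotation release and strand setting are not given in the sources used here, so genes overlapping on either strand are uncertain. Groups were taken from column names, which carry no replicate number, and library numbers only name libraries. Of 37310 identifiers 32620 had a symbol, positions are from GENCODE M21, and 0 rows lacked an identifier. Library totals and the level of 3 counts, which set the precision, are in the report.

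The 42 libraries (14 groups of 3) were fitted in edgeR 4.0.16 (R 4.3.3) with filterByExpr, TMM scaling and 1 mean per group, and 11624 genes were tested by the quasi-likelihood F test with Benjamini-Hochberg adjustment at 0.05. SE is the log2 fold change divided by the square root of F. The test was tested on simulated data. Within KO LPS 24 h and within KO Control 24 h, the groups compared here, no 2 libraries matched within sampling noise (chi-square per degree of freedom 1.93 to 4.77).

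Named were the 12 genes per direction with the largest change among called genes with a symbol, at least 20 CPM in the higher group and no overlap, 5 per direction with the smallest adjusted p for each difference of responses (at least 1 CPM), preset genes of each list, and Irf5, Lyz2 and Nnt. Lists (30 of pathways, 8 of markers) were matched by symbol, with 4 of 663 symbols not analysed here, and some members are counted but not reported by name. Members and lists were chosen with earlier results of these data known. Alternatives were RLE scaling, all genes with a count, only the libraries compared, DESeq2 1.42.0 and leaving out each library.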

Additional observations from a re-analysis of the deposited data

Results flagged for a closer look

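The response to LPS in the libraries labelled KO differed between 24 h and 2 h by the test of the difference itself, with a higher 24 h value for 1667 genes and a lower one for 2213. Among the named genes with the smallest adjusted p, the 24 h value was higher for H2-T22 (3.43), C3 (3.05), Fcgr1 (3.81), Ms4a6c (2.15) and Ms4a6d (1.90). It was lower for Sdc4 (-3.68), Tnfaip3 (-3.61), Tnfaip2 (-2.47), Ccl4 (-5.01) and Ppp1r15a (-3.79).

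The response at 24 h was called different between the KO and WT labels for Fcgr3 alone, by -0.57 on the log2 scale. The call was kept in only 7 of 16 alternatives, and was lost when only the libraries compared were fitted. No formal test for a library that stands apart was run on groups of 3.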

How the results depend on the processing

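No paired analysis was possible because the columns carry no replicate numbers. The counts of genes that rose or fell at 24 h, and of genes whose response differed between times, stayed within 1.5 times of the values given under every alternative run, at 2071 to 2153 rises and 2125 to 2226 falls without 1 library. Of the 4750 calls, 4706 were kept with RLE scaling, 4222 with all genes with a count, 4503 with only the libraries compared and 4646 with DESeq2, and 3386 were kept whichever of the 6 libraries was left out. The count of genes whose response differed between KO and WT was 1, and became 26 with all genes with a count, 0 with only the libraries compared, 2 with DESeq2 and 0 to 2 without 1 library. It was 0 without KO Control library 1 or 2, KO LPS library 1 or 3, WT Control library 1 or 2, or WT LPS library 2, and 2 without WT LPS library 3. The cause was not tested. Of 1534 values of single genes under alternatives, 1496 kept direction and call, 25 lost the call, 13 gained it and 0 reversed. Il10 also lost its call with all genes with a count (adjusted p = 0.0747) and with only the libraries compared (0.0795). A level under 3 counts, 0.441 to 0.779 CPM, cannot be told from 0 at this depth.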

Other observations

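Some gene families were grouped by symbol after their values were seen, so their counts are a description. Over all genes tested, 19.9% rose and 21% fell. All 7 Schlafen genes tested rose at 24 h in the libraries labelled KO, with a median of 2.66, as did all 5 Ms4a genes (2.50) and all 8 Oas genes (3.59), which sense double-stranded RNA. Of 12 PYHIN genes, 11 rose (4.10), and Aim2 was the exception. Of 43 proteasome subunit genes, 32 rose and 0 fell, with a median of 0.42. The Schlafen, Ms4a, Oas and PYHIN families hold near-identical copies that can share reads.

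Of 43 histone genes of the Hist clusters, which are transcribed mainly in S phase, 38 fell and 0 rose, with a median of -1.40. Cytosolic ribosomal protein genes fell in 40 of 80 members and rose in 1, with a median of -0.25. Mitochondrial ribosomal protein genes rose in 27 of 76 and fell in 0, with a median of 0.29. The shares over all genes tested were 21% that fell and 19.9% that rose. All 8 mitochondrially encoded genes tested fell, with a median of -0.56, beside the rise of nuclear-encoded subunits. In WT, 3 of these 8 fell, with a median of -0.24, and the KO minus WT difference was negative in all 8, from -0.54 to -0.23 with a median of -0.38. It was called for 0 of the 8 by edgeR, with 6 of the 8 at an unadjusted p under 0.05, and for 0 by DESeq2. When every gene with a count was tested, mt-Cytb, mt-Nd2 and mt-Nd5 were called, and without WT LPS library 3 mt-Nd2 was called.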
